A study of Homo sapiens with 480 samples.

Results

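At day 8 of reprogramming, cells of one labelled group fell on both sides of a low level of FN1, the gene of fibronectin, and these are the cells described here. They come from single-cell RNA sequencing of BJ, an established line of human skin fibroblasts, in which viral expression of the 4 transcription factors OCT4, SOX2, KLF4 and MYC had been induced. The study took 480 cells in 5 groups of 96: BJ cells without the factors, cells at day 2, cells at day 8, and cells of day 16 sorted as positive or negative for TRA-1-60, a surface epitope of pluripotent cells. The deposited FPKM (fragments per length of transcript and number of reads) of each cell were rescaled to a total of 1000000, a gene counted as detected at 1 or more, and cells with at least 2000 detected genes were kept, which held for 92 of the 96 day 8 cells and left out 4 with 309 to 1942 genes. Of these 92 cells, 51 were chosen by FN1 at 1 or more and are called FN1-keeping, and 41 had FN1 under 1 and are called FN1-low. All 92 were labelled as the same day, factors and line, and the labels give neither cultures nor infections nor chips, so that they are treated as 1 culture. The day 8 cells therefore count as 1 sample whose cells are not replicates, and no difference between the sides was tested. The names describe a level at 1 time point, since no cell was followed over time.

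Fibronectin is a large glycoprotein that fibroblasts secrete and assemble into fibrils at their surface, mainly through the integrin of ITGA5 and ITGB1. Collagens, latent TGF-beta complexes and other matrix proteins are laid down on those fibrils. Fibroblasts are rich in it, and reprogramming by these 4 factors passes through a loss of mesenchymal genes and a gain of epithelial ones, the mesenchymal-to-epithelial transition, before pluripotency genes are switched on.

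The promoter of FN1 is shown because FN1 defines the split, and those of COL6A3 and ANXA3 because these genes stood at or near opposite ends of the ranking by FN1 given later. Each is the window from 250 bases before to 50 bases after the start site in RefSeq's GRCh38.p14, a later build than the hg19 named in the submitters' processing notes. Capitals mark letters of 5 motifs searched on both strands, namely the cyclic AMP response element TGACGTCA, the CCAAT box, TATAA, the E2 box CACCTG that factors of the ZEB and SNAI families recognise, and the AP-1 site TGANTCA, none of which overlapped another in these windows. On the minus strand lie FN1 at chr2:215436019-215436318 and COL6A3 at chr2:237414115-237414414, and on the plus strand ANXA3 at chr4:78551520-78551819.
FN1: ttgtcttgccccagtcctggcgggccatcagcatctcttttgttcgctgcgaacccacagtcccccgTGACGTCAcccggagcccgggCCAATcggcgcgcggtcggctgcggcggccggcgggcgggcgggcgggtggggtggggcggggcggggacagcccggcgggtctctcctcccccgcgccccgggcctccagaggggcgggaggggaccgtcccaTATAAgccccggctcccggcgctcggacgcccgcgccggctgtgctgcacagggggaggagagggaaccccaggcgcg
COL6A3: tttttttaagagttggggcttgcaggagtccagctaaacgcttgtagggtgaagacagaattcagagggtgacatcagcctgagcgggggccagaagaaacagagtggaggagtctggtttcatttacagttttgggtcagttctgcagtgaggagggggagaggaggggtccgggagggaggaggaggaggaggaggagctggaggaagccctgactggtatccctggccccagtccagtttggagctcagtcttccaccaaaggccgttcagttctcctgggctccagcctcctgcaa
ANXA3: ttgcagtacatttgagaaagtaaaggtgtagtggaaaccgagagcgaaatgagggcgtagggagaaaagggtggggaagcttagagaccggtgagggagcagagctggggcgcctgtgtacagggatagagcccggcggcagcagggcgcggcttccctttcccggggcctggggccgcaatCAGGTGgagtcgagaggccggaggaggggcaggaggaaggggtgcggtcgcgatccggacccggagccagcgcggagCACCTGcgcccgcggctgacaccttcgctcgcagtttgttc
The FN1 window held TGACGTCA starting 183 bases before the start site, CCAAT 162 bases before it and TATAA 28 bases before it. Of 35116 RefSeq promoters, 1.85% hold TGACGTCA, 34.6% CCAAT and 20.4% TATAA. None of the 5 motifs was in the COL6A3 window. ANXA3 held the E2 box in both orientations, which 20.6% of the promoters hold in either, while TGANTCA, found in 7.71% of promoters, was in none of the 3 windows. These matches describe letters and not bound sites.

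FN1 itself spread widely at day 8. Among the 51 FN1-keeping cells the lowest value was 1.11, the median 16.9 and the highest 1072. In the 41 FN1-low cells the lowest was 0, the median 0.118 and the highest 0.942, with 14 cells at 0. These values chose the sides and are no result. There was no gap at the threshold, as the cells nearest to it inside were at 1.11, 1.25 and 2.08 and those outside at 0.942, 0.930 and 0.689. FN1 was between 1 and 10 in 19 cells, between 10 and 100 in 22 and at 100 or more in 10.

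**Figure D1:**
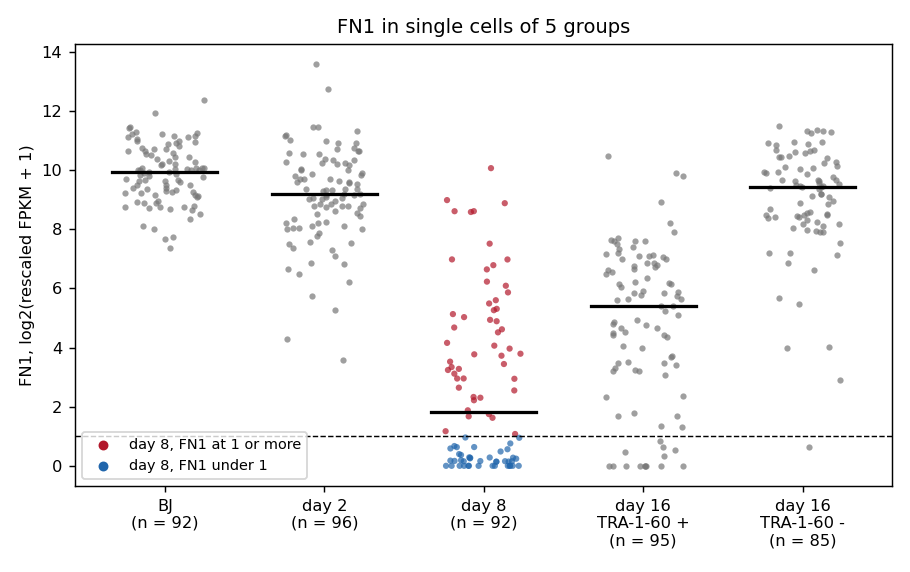
FN1 in each kept cell of the 5 groups, as log2 of rescaled FPKM plus 1, with the group median as a bar and the threshold of 1 as a dashed line. Day 8 cells are red at 1 or more and blue under 1; their median of 2.52 lies below those of the 4 other groups, which are between 41.1 and 973.

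The day 8 cells stood apart in the course of the series. FN1 was at 1 or more in 100% of 92 BJ cells, 100% of 96 day 2 cells, 55.4% of 92 day 8 cells (exact binomial 95% interval 44.7 to 65.8, counting error only), 85.3% of 95 TRA-1-60 positive cells (76.5 to 91.7) and 98.8% of 85 TRA-1-60 negative cells. The medians were 973, 585, 2.52, 41.1 and 682 in the same order. No day 2 cell was lower than 10.9, so all 41 FN1-low cells and 20 of the 51 FN1-keeping cells lay below the range of day 2, and the highest day 8 cell, at 1072, lay above the day 2 median. Levels set across groups come from separate tables, and a common normalization is not stated for them.

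Detected genes and totals per cell overlapped between the sides, with more genes in FN1-keeping cells. FN1-keeping cells had a median of 6016 detected genes (2976 to 8574) and FN1-low cells 5837 (3184 to 8985). When the 92 cells were parted at the median number of genes, 30 FN1-keeping and 15 FN1-low cells had more genes, and 21 FN1-keeping and 26 FN1-low cells had fewer. Read depth is unknown, and the median FPKM total before rescaling was 801967 in FN1-keeping and 823913 in FN1-low cells. Small RNA and mitochondrial genes took a median of 0.431% of the total in FN1-keeping and 0.548% in FN1-low cells. GAPDH averaged 6438 in FN1-keeping cells and 5858 in FN1-low cells, and ACTB 7029 and 5792. Over the housekeeping list the median log2 ratio of FN1-keeping over FN1-low means was -0.05, and none of 15 measured members differed 2-fold.

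Both sides carried fibroblast markers and simple epithelial keratins at once. COL1A2 was detected in 51 of 51 FN1-keeping and 39 of 41 FN1-low cells, and the fibroblast surface antigen THY1 in 49 of 51 and 38 of 41. The simple epithelial keratin KRT18 was detected in all 92 cells, and KRT8 in 49 of 51 FN1-keeping and 41 of 41 FN1-low cells. The later epithelial markers were rare on both sides: CDH1 (E-cadherin) in 6 of 51 and 6 of 41 cells, and EPCAM in 8 and 6. Pluripotency markers varied, with NANOG in 3 and 3 cells, TDGF1 in 9 and 9, GDF3 in 13 and 14, and L1TD1 in 24 and 32. KRT18 was also detected in 87 of 92 BJ cells and 96 of 96 day 2 cells, at medians of 195 and 647, and KRT8 in 22 and 53. The KRT8 medians were 0 in BJ and 1.24 at day 2, against 294 in FN1-keeping and 1142 in FN1-low cells. Detection of these 2 keratins alone therefore does not mark an epithelial state, although KRT8 was at a far higher level at day 8. On either side of the threshold most cells held COL1A2, THY1 and both keratins, and neither side can be called fibroblast or epithelial from such detection.

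Across all genes other than FN1, 12186 had a mean of 1 or more on either side. A gene was counted as at least 2-fold higher in FN1-keeping cells where log2((mean + 1)/(mean + 1)) was 1 or more and the mean of log2(value + 1) over cells differed in the same direction. This held for 1404 genes (11.5%), and 668 (5.48%) were at least 2-fold lower. The median log2 ratio over all 12186 genes was 0.14, which is the level against which the lists below are read. In the cells with 4000 or more genes, 50 FN1-keeping and 38 FN1-low, 1365 of 12216 genes were higher (11.2%) and 683 lower (5.59%). Of the genes higher in all kept cells 91.95% were also higher there, and of the genes lower 91.9% were also lower.

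Most matrix genes had higher means in FN1-keeping cells. Of 84 measured genes in 3 lists, collagen chains, other matrix proteins, and matrix enzymes with their inhibitors, 37 (44.05%) were at least 2-fold higher, 0 were lower, and 79 had a log2 ratio above 0. The median log2 ratio of the 84 was 0.91.

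The 20 measured collagen chains all had log2 ratios above 0, with a median of 0.78, and 8 were at least 2-fold higher. COL1A1, a chain of type I collagen, had a lowest value of 0, a median of 21.4 and a highest of 919 in FN1-keeping cells, against 0, 1.72 and 84.4 in FN1-low cells. Cells of the 2 sides overlapped from 0 upwards, and FN1-keeping cells alone were above 84.4. Its means were 74.05 and 10.2, a log2 ratio of 2.75, and it was detected in 45 of 51 FN1-keeping and 23 of 41 FN1-low cells. COL1A2, the partner chain, had medians of 273 and 79.6 and a log2 ratio of 1.67. COL6A3, a chain of the microfibrillar type VI collagen, ranged over 0, 17.2 and 538 (lowest, median, highest) in FN1-keeping cells and over 0, 3.17 and 38.1 in FN1-low cells, with a log2 ratio of 2.69. Again the ranges overlapped from 0 upwards and only FN1-keeping cells were above 38.1. COL6A1 had a log2 ratio of 1.75 with 105 and 30.5 as means. COL3A1, the fibrillar chain of type III collagen, was nearer to equal, at means of 90.9 and 58.5 and a log2 ratio of 0.63. COL13A1 was detected in 6 FN1-keeping cells and listed at 0 in every FN1-low cell.

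Of 34 other matrix proteins 15 were at least 2-fold higher and 0 lower, at a median log2 ratio of 0.91. LUM (lumican), a proteoglycan that binds collagen fibrils, was close to an on and off pattern. Its lowest, median and highest values were 0, 0.338 and 859 in FN1-keeping cells and 0, 0 and 81.5 in FN1-low cells, and it was detected in 20 of 51 (39.2%) and 5 of 41 (12.2%). Most cells of both sides lacked it, and the log2 ratio of 4.64 comes from the minority that held it. The collagen-binding glycoprotein SPARC was detected in nearly all cells, at medians of 266 and 98.9, and had a log2 ratio of 1.28. Fibrillin-1, FBN1, was detected in 42 of 51 FN1-keeping and 21 of 41 FN1-low cells, with a log2 ratio of 1.37. THBS1 (thrombospondin 1) had a log2 ratio of 1.49, and the latent TGF-beta binding proteins LTBP1 and LTBP2 had 2.18 and 1.71.

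Matrix enzymes and inhibitors were higher for 14 of 30 members and lower for 0, at a median of 0.94. LOXL2, a lysyl oxidase that cross-links collagen, had 0, 3.09 and 384 as lowest, median and highest value in FN1-keeping cells and 0, 0 and 47.2 in FN1-low cells. It was detected in 28 of 51 (54.9%) and 5 of 41 cells, with a log2 ratio of 3.41. Most FN1-low cells lacked it, and the ranges overlapped up to 47.2. The metalloproteinase inhibitors were detected broadly: TIMP1 had medians of 716 and 376 and a log2 ratio of 1.85, and TIMP3 medians of 69.6 and 9.88 and a log2 ratio of 2.84. FAP, a surface protease of activated fibroblasts, was detected in 18 of 51 FN1-keeping and 3 of 41 FN1-low cells. The ratios of the collagenase MMP1 and of MMP3 were larger still, 3.74 and 5.76, but 1 cell set each of these means: the highest FN1-keeping cell was at 3615 for MMP1 and 2897 for MMP3, and the genes were detected in 7 and 2 FN1-keeping and 7 and 1 FN1-low cells.

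**Figure D2:**
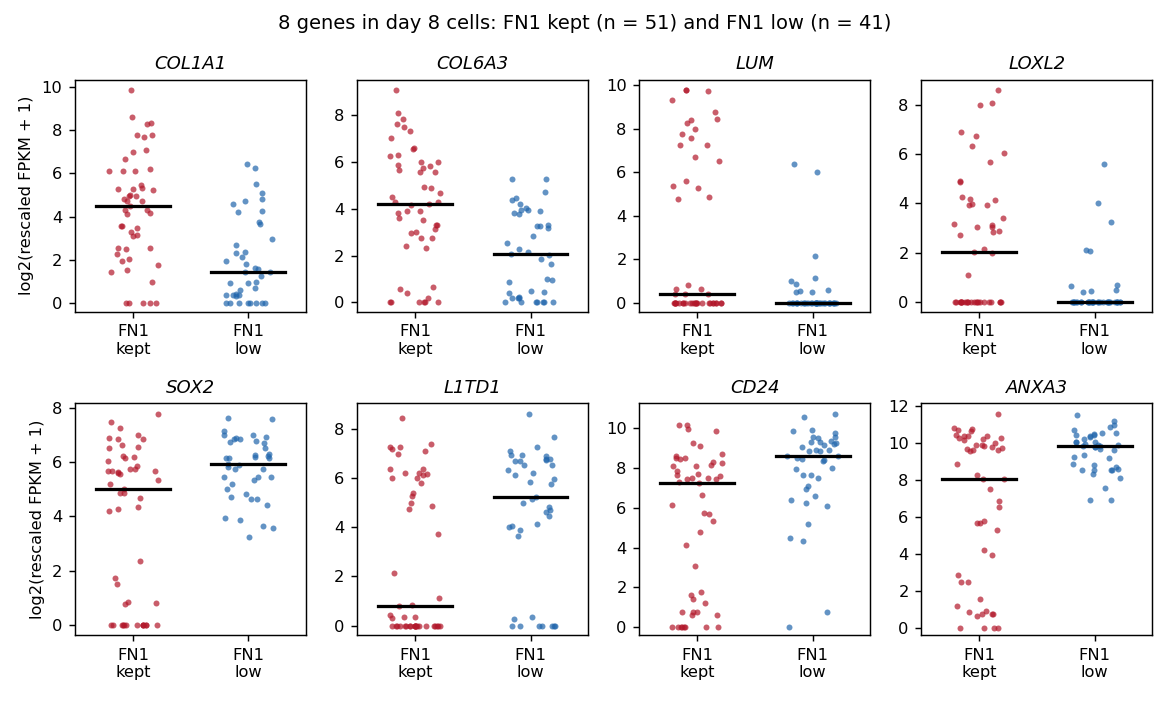
Values of 8 genes in each day 8 cell as log2 of rescaled FPKM plus 1, FN1-keeping cells on the left and FN1-low cells on the right of each panel, with medians as bars. COL1A1, COL6A3, LUM and LOXL2 reach higher in the 51 FN1-keeping cells, while SOX2 and ANXA3 are at 1 or more in all 41 FN1-low cells and spread down to 0 in the FN1-keeping ones.

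Receptors that bind the matrix moved the same way with smaller ratios. Among 13 measured integrins and syndecans 3 were at least 2-fold higher and 0 lower, with all 13 above 0 and a median of 0.65. In cells with 4000 or more genes 2 of them were higher. ITGA5, the alpha chain of the main fibronectin receptor, had 0, 12.3 and 205 as lowest, median and highest value in FN1-keeping cells and 0, 0.620 and 69.3 in FN1-low cells. It was detected in 35 of 51 and 19 of 41 cells, and its log2 ratio was 1.89. Its partner ITGB1, which pairs with many alpha chains, was detected in every cell at medians of 125 and 70.2, a log2 ratio of 0.81 that misses the 2-fold count. ITGA4, whose integrin also binds fibronectin, had a log2 ratio of 1.01 in all kept cells and was under 2-fold in those with 4000 or more genes. Of 12 fibroblast surface markers 2 were higher, the growth factor receptor PDGFRB (23 of 51 and 4 of 41 cells, log2 ratio 1.91) and the aminopeptidase ANPEP (31 and 13 cells, log2 ratio 1.96). That count is near the 11.5% of all genes, although 11 of the 12 markers had a log2 ratio above 0. The hyaluronan receptor CD44 had a log2 ratio of 0.80, the middle of that list, and THY1 0.37.

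Mesenchymal genes stood with the matrix, and contractile genes leaned the same way by less. Of 25 contractile and actin-binding genes 6 were higher and 0 lower, at a median of 0.50, led by the smooth muscle protein TAGLN with medians of 300.5 and 37.9 and a log2 ratio of 1.84, and by the myosin light chain MYL9 with 1.20. In cells with 4000 or more genes 4 of these 25 were higher, at a median of 0.37, where 11.2% of all genes were higher. Of 13 mesenchymal regulators and cadherins 6 were higher and 0 lower, at a median of 0.80. ZEB1, a repressor of epithelial genes, had 0, 5.75 and 52.5 as lowest, median and highest value in FN1-keeping cells and 0, 0 and 31.5 in FN1-low cells. It was detected in 35 of 51 and 15 of 41 cells and its log2 ratio was 1.38. SNAI2, a repressor of the same kind, had a log2 ratio of 2.07 in 18 and 8 detecting cells, and the limb mesenchyme factor PRRX1 had 1.89. Vimentin, VIM, was detected in 51 of 51 and 40 of 41 cells at medians of 2086 and 1295, a log2 ratio of 0.80. The regulator TWIST2, with a log2 ratio of 0.64, was also under 2-fold.

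Genes of signalling to fibroblasts gave a mixed picture. In the TGF-beta pathway, a known inducer of FN1, 4 of 15 were higher and 0 lower, and the median of 0.14 is that of all genes to 2 decimals. The 4 were the receptor TGFBR2 (1.63), the ligand TGFB2 (1.79), the transducer SMAD3 (1.22) and the feedback inhibitor SMAD7 (1.29), as log2 ratios. Of 12 TEAD and YAP genes 1 was higher, TEAD2, and of 9 AP-1 factors 2 were higher, FOSL1 (1.39) and MAFF (1.23). The list of ID genes, BMP signalling and IGF-binding proteins had 3 of 18 higher, among them IGFBP7 (1.18) and the BMP antagonist GREM1 (1.71). This count and that of the TEAD and YAP genes are near 11.5%, the share of all genes.

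Some inflammatory and interferon genes were higher in FN1-keeping cells. Of 10 inflammatory genes 5 were higher and 0 lower. IL1B, the cytokine interleukin-1 beta, averaged 321 in FN1-keeping and 88.98 in FN1-low cells, was detected in 21 of 51 and 12 of 41, and reached 5210 and 1484. IL6, CXCL5, CXCL6 and CCL20 were the others, each detected in at most 10 FN1-keeping cells. Of 17 interferon response genes 5 were higher and 1 lower. IFI6 was detected in 27 of 51 FN1-keeping and 6 of 41 FN1-low cells, with a log2 ratio of 1.95, and IFIT3 in 17 and 4, with 2.57. The median of the inflammatory list was 1.20 by means and 0.26 by the difference of mean log2 values, and that of the interferon list 0.71 and 0.30.

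**Figure D3:**
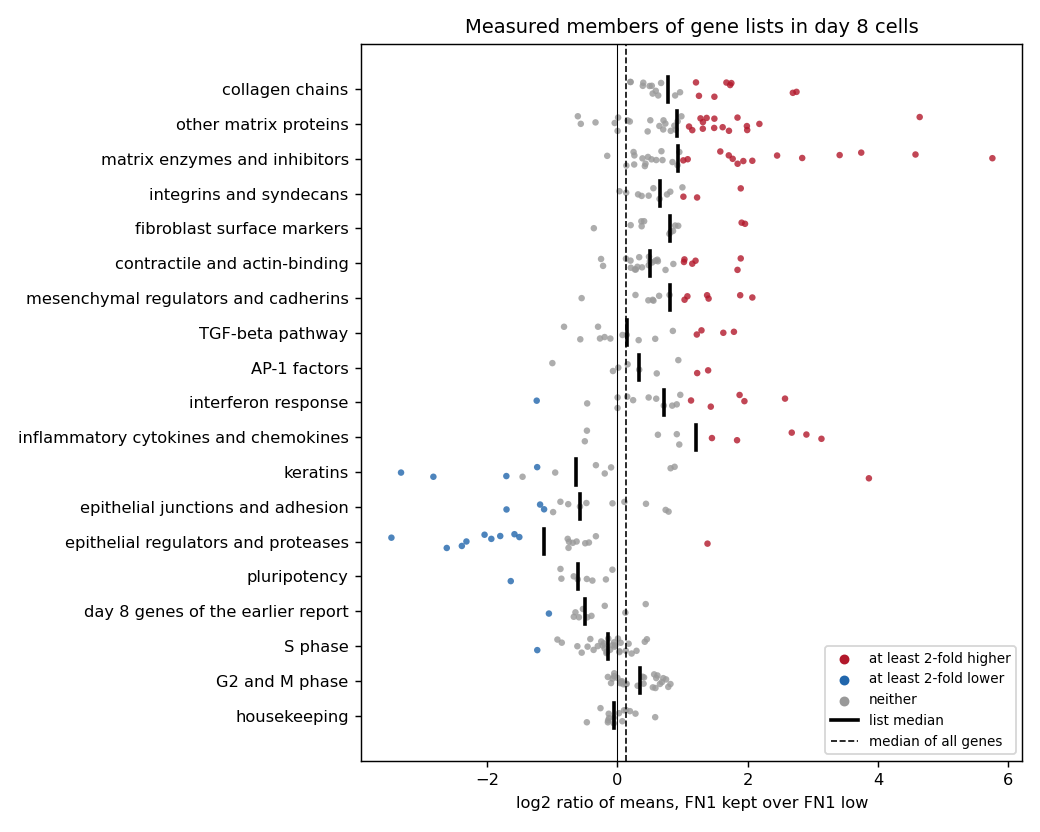
Log2 ratio of means, FN1-keeping over FN1-low cells, for each measured member of 19 gene lists, red where at least 2-fold higher, blue where at least 2-fold lower and grey otherwise, with list medians as black bars and the median of all genes, 0.14, dashed. The 3 matrix lists at the top hold 37 higher and 0 lower members, and the epithelial regulators 1 and 9. A few FN1-low cells held much of the epithelial regulator list.

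On the other side stood genes that day 8 cells had gained. The list of 10 genes taken from an earlier account of these same data as high at day 8, which is therefore no independent list, had a median log2 ratio of -0.49 by means and -1.78 by the difference of mean log2 values. The gap between the 2 numbers comes with FN1-keeping cells that lacked these genes. ANXA3, a calcium-dependent phospholipid-binding annexin, had 0, 268 and 3049 as lowest, median and highest value in FN1-keeping cells, against 120.1, 923 and 2949 in FN1-low cells. The highest cells were alike, but 10 of 51 FN1-keeping cells were below 1 and no FN1-low cell was. CD24, a mucin-like surface antigen used to mark early reprogrammed cells, had 0, 150.2 and 1125 in FN1-keeping and 0, 385 and 1645 in FN1-low cells, detection in 38 of 51 and 39 of 41, and a log2 ratio of -1.05, the only one of the 10 past 2-fold. The phospholipase PLA2G16 was detected in 43 of 51 and 41 of 41 cells at medians of 356 and 524. SPP1 (osteopontin), a secreted phosphoprotein, had medians of 32.2 and 362.

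SOX2 and L1TD1 were detected in fewer FN1-keeping than FN1-low cells, and other factors and pluripotency genes varied. SOX2 had 0, 31.6 and 221 as lowest, median and highest value in FN1-keeping cells and 8.46, 61.04 and 200.5 in FN1-low cells. It was at 1 or more in 35 of 51 FN1-keeping cells (68.6%) and in 41 of 41 FN1-low cells, and its log2 ratio of means was -0.63. The tables do not say how much of a SOX2, KLF4 or MYC value comes from the virus. KLF4 had a log2 ratio of -1.04, from means of 7.06 and 15.6, and MYC 0.13, from 390.02 and 357, with MYC detected in 49 of 51 and 41 of 41 cells. The KLF4 medians were 1.64 and 2.90, and 1 FN1-low cell at 269.5 raised the FN1-low mean. In cells with FN1 at 100 or more the KLF4 mean was 20.9. OCT4 was not analysed here. The pluripotency-associated RNA binder L1TD1 was detected in 24 of 51 FN1-keeping cells (47.1%) and 32 of 41 FN1-low cells (78.05%), at medians of 0.746 and 36.2. Of 9 measured pluripotency genes 0 were higher, 1 was lower and 0 had a ratio above 0. That 1 was GDF3, a TGF-beta family ligand, at means of 13.2 and 43.1, detected in 13 of 51 and 14 of 41 cells, so that its ratio of -1.63 came from higher cells rather than from many more. TDGF1, the Nodal co-receptor, was detected in 9 cells on each side.

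Some keratins and epithelial genes were lower in FN1-keeping cells, most of them detected in a minority of cells on both sides. Of 18 measured epithelial regulators and proteases 9 were at least 2-fold lower and 1 higher, and their median log2 ratio was -1.13 by means and -0.31 by the difference of mean log2 values. A few FN1-low cells held much of this list, with 15, 14 and 12 members detected and sums of 1887, 733 and 1647. The FN1-low medians were 3 members and a sum of 118, so these ratios of means need not describe most FN1-low cells. The epithelial transcription factor ELF3 was detected in 6 of 51 and 12 of 41 cells, with a ratio of -1.58. PRSS8 (prostasin), a membrane-anchored protease, was detected in 0 of 51 FN1-keeping cells and in 6 of 41 FN1-low cells. The 0 allows a share of up to about 5.88%, by the approximate bound of 3 over the number of cells. MAL2 was listed at 0 in every FN1-keeping cell and was detected in 3 FN1-low cells. Of 13 epithelial junction genes 3 were lower and 0 higher, and CDH1, at a ratio of -1.18, was detected in 6 cells on each side. KRT8 had 0.910, 294 and 5099 as lowest, median and highest value in FN1-keeping cells and 4.89, 1142 and 6773 in FN1-low cells, yet its means of 1157 and 1322 gave a ratio of only -0.19. KRT18 had means of 3108 and 3320 and a ratio of -0.10. Of 12 keratins 4 were lower, among them KRT19 at medians of 1.78 and 40.6, and 1 was higher, the basal keratin KRT14 in 11 of 51 and 2 of 41 cells.

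Few genes of growth and metabolism were past 2-fold. Of 32 S phase genes 1 was lower, CCNE1 (cyclin E1; 9 of 51 and 18 of 41 cells), and 0 were higher. The median of that list was -0.15 by means and -0.59 by the difference of mean log2 values, and the lower quartile of members detected per cell was 13.5 in FN1-keeping and 23 in FN1-low cells. Of 28 G2 and M phase genes 0 were past 2-fold, and their median log2 ratio of 0.35 by means turned to -0.10 by the difference of mean log2 values. Glycolysis (21 genes) and oxidative phosphorylation (28 genes) had no member past 2-fold and medians of 0.14 and -0.11. Of 21 cholesterol synthesis genes 1 was lower, the kinase PMVK, and of 19 p53 targets and CDK inhibitors 1 was higher, the death receptor FAS at 1.15, and 2 were lower, SESN1 and GDF15. Counts past 2-fold were 1 higher and 2 lower of 18 in the unfolded protein and stress list, with the stress-induced pseudokinase TRIB3 at -1.77, 1 and 1 of 17 in the NRF2 list, 0 and 2 of 8 for metallothioneins, and 0 and 2 of 19 for S100A proteins and annexins.

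Markers of other cell types were mostly unmeasured. Of 9 endothelial genes 4 were measured and 0 were past 2-fold, and of 9 neural genes 4 were measured and 1 (PAX6, in 2 and 3 cells) was lower. Of 9 blood and immune genes 4 were measured, with CD68 higher, which codes for a lysosomal protein not confined to macrophages (19 of 51 and 3 of 41 cells), and HBB lower, in 0 and 1 cell. The trophoblast list had 1 of 5 higher, CGA in 1 and 1 cell, the mesendoderm and endoderm list had AFP alone, in 0 of 51 and 4 of 41 cells, and the adipocyte, bone and cartilage list had PPARG and SOX9 higher of 3 measured.

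Genes were also ranked without regard to lists. Among those with a mean of at least 10 on the higher side, a 2-fold difference and shares of detecting cells 20 points apart, 109 were higher and 25 lower in FN1-keeping cells. The 12 with the largest difference of mean log2 values on the higher side were LUM, IFI27L2, COL1A1, DKK3, HPCAL1, SLC35G2, C16orf45, THOC5, UBE2L6, COL6A3, GLT8D2 and LRRFIP2. DKK3, a secreted glycoprotein of the Dickkopf family, was detected in 39 of 51 and 18 of 41 cells, with a log2 ratio of 1.97. UBE2L6, the conjugating enzyme of the interferon-induced modifier ISG15, was detected in 20 of 51 and 2 of 41, with 3.39. The 12 on the lower side were LIM2, CD24, IL18, SCGB3A2, GCHFR, FOLR1, RNASE1, GAL, METTL7A, FDX1L, PRKAR2B and AVPI1. IL18, an interleukin-1 family cytokine that epithelia make, had means of 45.9 and 125 and was detected in 21 of 51 and 28 of 41 cells. LIM2, known as a lens membrane protein, was detected in 14 of 51 and 26 of 41, with a log2 ratio of -2.51. FOLR1, the folate receptor alpha of epithelia, had a ratio of -1.51. Matrix genes took 3 of the 12 higher places, and no matrix gene was among the 12 lower. The matrix lists held 84 of the 12186 measured genes, and their members among the 109 and 25 were not counted.

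Ranked by Spearman rho with FN1 over the 92 cells, which share 1 culture and a fixed total, 4 of the 10 genes most like FN1 belonged to the matrix lists. Those lists held 84 of the 12186 measured genes, and their members among the genes ranked here were not counted. Among 8500 genes detected in at least 25% of cells, rho had a median of 0.04 and ran from -0.20 to 0.27 between the 5th and 95th percentiles. The highest were COL6A3 (0.58), LOXL2 (0.55), COL1A2 (0.53), PDGFRB (0.53) and COL1A1 (0.52), followed by LRRFIP2, BRK1, C16orf45, LGALS1 and RIN2. The lowest were CD24 (-0.51), C19orf33 (-0.51), PLA2G16 (-0.50), ANXA3 (-0.50) and LIM2 (-0.46), followed by LSM5, PRR15, RPS27A, RPL30 and SET. Among these were ribosomal protein genes with small differences in level, RPS27A at medians of 1935 and 2286 and RPL30 at 4728 and 5481.

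**Figure D4:**
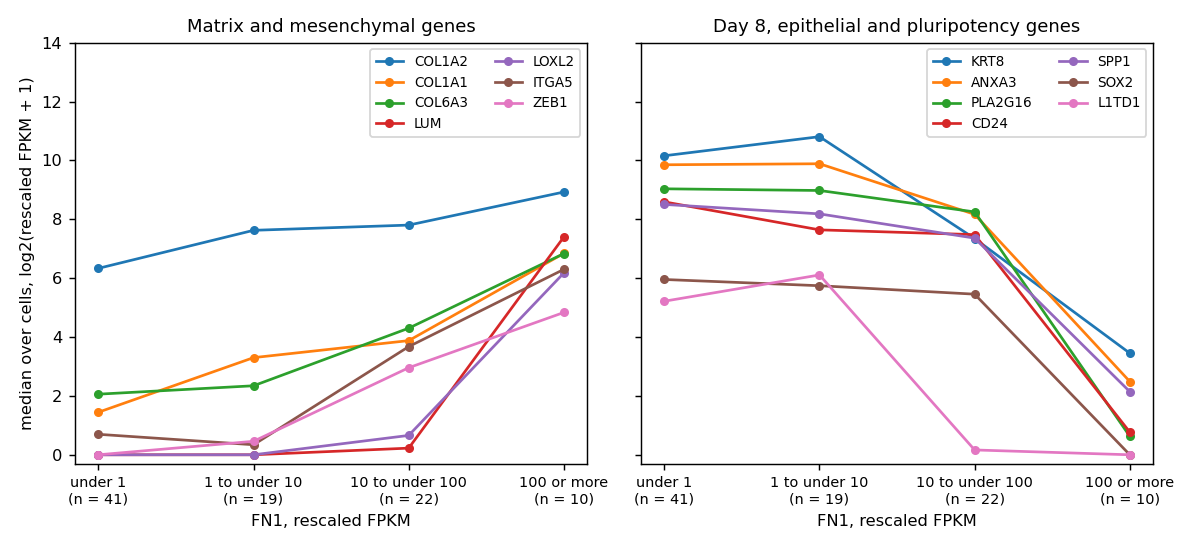
Median over day 8 cells of log2 of rescaled FPKM plus 1 in 4 ranges of FN1, for 7 matrix and mesenchymal genes (left) and 7 day 8, epithelial and pluripotency genes (right). COL1A1 medians are 1.72, 8.85, 13.7 and 114 from the lowest range to the highest, and those of SOX2 61.04, 52.6, 42.9 and 0.

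The FN1-keeping cells differed among themselves with the level of FN1. Of the genes below, COL1A1, COL1A2, ANXA3 and CD24 were already among the highest or lowest by rho with FN1 in these same cells. Their course is therefore no separate result. COL1A1 had medians of 1.72, 8.85, 13.7 and 114 in cells with FN1 under 1, from 1 to under 10, from 10 to under 100, and at 100 or more. COL1A2 had 79.6, 196, 222 and 486 over the same 4 ranges, and VIM 1295, 1588, 2137 and 5237. These 3 medians were higher in each range than in the one below, whereas KRT8, ANXA3 and L1TD1 were no lower from 1 to under 10 than under 1, and low at 100 or more. ANXA3 had medians of 923, 946, 287 and 4.61, CD24 of 385, 199, 177 and 0.705, KRT8 of 1142, 1791, 162 and 9.94, and L1TD1 of 36.2, 68.04, 0.120 and 0. MYC (188, 221, 211 and 143) and GAPDH (5926, 5863, 6008 and 5790.1) showed no such course, and the median number of detected genes was 5837, 5921, 6100 and 6393. S phase members detected had medians of 27, 22, 26.5 and 20 of 32.

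The 10 cells with FN1 at 100 or more were low in several genes of day 8. SOX2 was at 1 or more in 2 of these 10 cells, L1TD1 in 0 and CD24 in 4, while COL1A1, COL6A3, LOXL2 and ITGA5 were detected in all 10. At day 2, CD24 was detected in 12 of 96 cells, L1TD1 in 11 and SOX2 in 59, the KRT8 median was 1.24, and the COL1A1 median was 188. The level of MYC in these 10 cells, a median of 143 with values from 3.61 to 4570, was between the medians of BJ (11.5) and day 2 (676). The MYC medians of the lower FN1 ranges, 188, 221 and 211, were so too, and MYC does not set these 10 cells apart.

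More broadly, 16 of the 51 FN1-keeping cells had SOX2 under 1. Their FN1 median was 83.3, against 10.5 in the 35 FN1-keeping cells with SOX2. Median COL1A1 was 65.7 in the 16 cells, 10.7 in the 35 and 1.72 in FN1-low cells, and median KRT8 was 60.0, 1306 and 1142. CD24 had medians of 1.04, 190.4 and 385 in the same order, and MYC of 239, 219.5 and 188. The 35 cells with SOX2 were thus close to FN1-low cells in median KRT8 and lay between the other sets in median COL1A1. By the difference of mean log2 values KRT8 was lower in these 35 than in FN1-low cells, at -0.81. ANXA3 was detected in 30 of the 35 and in 41 of 41 FN1-low cells. The division by SOX2 was chosen after the values were seen.

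The matrix difference was smaller without those cells and kept its direction. Among cells with SOX2 at 1 or more, 35 FN1-keeping and 41 FN1-low, 1121 of 11971 genes were at least 2-fold higher (9.36%) and 824 lower (6.88%). There 5 of 20 collagen chains were higher and 0 lower at a median log2 ratio of 0.64, 10 of 34 other matrix proteins were higher and 1 lower at 0.74, and 7 of 29 matrix enzymes and inhibitors were higher and 0 lower at 0.57. Of 12 measured mesenchymal regulators and cadherins 2 were higher there, against 6 of 13 in all kept cells. The median of the 10 day 8 genes was -0.13 there by means, against -0.49 in all kept cells. By the difference of mean log2 values, ANXA3 (-1.90), C19orf33 (-1.43), CD24 (-1.42), KRT8 (-0.81), PLA2G16 (-0.76) and SPP1 (-0.65) were still lower there. The other members of that list were not compared by this measure in these cells. Without the 10 cells with FN1 at 100 or more, 1222 of 12084 genes were higher (10.1%) and 733 lower (6.07%). There 6 of 20 collagen chains were higher at a median of 0.66, with 10 of 34 other matrix proteins, 7 of 27 enzymes and inhibitors (1 lower) and 1 of 12 mesenchymal regulators and cadherins, a share near that of all genes. The median of the day 8 genes was -0.20 by means.

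**Figure D5:**
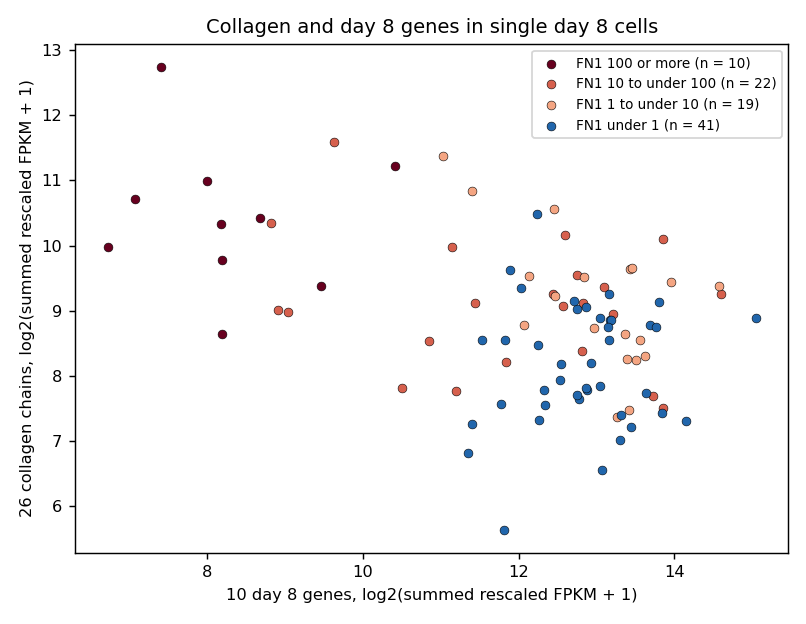
Summed level of 26 collagen chains against that of 10 genes high at day 8 in each of the 92 day 8 cells, as log2 of the summed rescaled FPKM plus 1, coloured by the range of FN1. The 10 cells with FN1 at 100 or more lie at the left, low in the day 8 genes, with some of the cells from 10 to under 100. The 41 FN1-low cells, from 2602 to 33909 in the summed day 8 genes, lie further right. Most cells with FN1 from 1 to under 10 overlap with them.

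Summed over each cell, the 2 sets of genes overlapped in most cells. The collagen chains summed to a lowest value of 164, a median of 610.5 and a highest of 6836 in FN1-keeping cells, and to 48.9, 289.7 and 1433 in FN1-low cells. The 10 day 8 genes summed to 105, 5612 and 24845 in FN1-keeping and to 2602, 7472 and 33909 in FN1-low cells. Of the 51 FN1-keeping cells 19 were below 2602 in the day 8 genes, the lowest value of any FN1-low cell.

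The same split could be made in 1 other group. In BJ and day 2 every kept cell had FN1 at 1 or more, and in the TRA-1-60 negative fraction 84 of 85 had. Among TRA-1-60 positive cells 81 had FN1 at 1 or more and 14 did not, but the 81 had a median of 5951 detected genes and the 14 of 3531.5. In that split 4891 of 13484 genes were at least 2-fold higher (36.3%) and 1647 lower (12.2%), at a median log2 ratio of 0.53 over all genes. Of the 12 genes highest at day 8, 11 were measured and 6 had a ratio above 0, and of the 12 lowest 3 had a ratio below 0. The collagen list had 5 higher and 4 lower of 19 and a median of -0.21. With cells of 4000 or more genes the sides held 58 and 5 cells, too few for the split, so the part that detected genes play in these values was not tested.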

How the data were processed

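The authors deposited FPKM of 27021 genes in a table for each group. STAR and Cuffnorm, on hg19, are the tools in the submitters' processing notes, with versions not given in the sources used here. Per the labels' protocols, cells were captured on the Fluidigm C1 system, and polyadenylated RNA went through STRT chemistry and Nextera XT into libraries. Groups come from the cells' labels. FPKM are not counts, no read depth can be had, and all intervals cover counting error only. Each cell was rescaled to 1000000 and kept with at least 2000 genes at 1 or more. The effect was log2 of the ratio of means with a pseudocount of 1, which understates the ratio of low genes; a mean of 1 or more on either side was asked for. With 1 culture per group, nothing was tested and no p-value is given. Shares carry Clopper-Pearson 95% intervals. Doublets were not called. No 2 cells had identical values, but 2 FN1-keeping day 8 cells were close in most genes looked at. They had FN1 at 6.74 and 6.69, KRT8 at 4001 and 4097, L1TD1 at 62.8 and 62.9 and ANXA3 at 1339 and 1356. Both were kept and counted, and whether they are 1 cell present in duplicate was not tested.

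The cells, the 36 gene lists and the rules were chosen with earlier results of these data known. Named genes were those of the 12 highest and 12 lowest, list members past 2-fold or nearest to their list's median, fixed markers, and the 10 highest and lowest by rho. Calculations used Python 3.11.15, pandas 2.3.3, numpy 2.4.6 and scipy 1.17.1, and were tested on simulated data. Alternatives changed the cells kept, scaling, FN1 threshold, pseudocount, filter on low values and summary over cells. Some list members are counted but not reported by name here.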

Additional observations from a re-analysis of the deposited data

How the results depend on the processing

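The share of day 8 cells with FN1 was 34.8% at a threshold of 10. The number of genes at least 2-fold higher was 2259 with FN1 above 0 set against FN1 at 0, 140 with a pseudocount of 10, 430 with a mean of 10 or more asked for and 383 by the difference of mean log2 values. The number lower was 57 with a pseudocount of 10, 153 with a mean of 10 or more, 123 by the difference of mean log2 values, 396 without the highest cell of each gene, and 1041 with FN1 at 10 or more set against FN1 under 1. The other alternatives, 13 for the higher and 12 for the lower count, stayed within 1.5 times, among them the mean of the ratios within cells with fewer and within cells with more detected genes, which gave 1322 higher and 641 lower.

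The medians of the collagen, other matrix, matrix enzyme and mesenchymal lists moved by less than 1.5 times under every alternative. That of the epithelial regulators was -1.83 with FN1 at 10 or more set against under 1, -0.082 with FN1 above 0 against 0, -1.86 and -0.35 with pseudocounts of 0.1 and 10, -0.31 by the difference of mean log2 values and -1.74 in cells with SOX2; the day 8 genes gave -1.78 by the difference of mean log2 values.

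Directions turned in small or sparse lists. With FN1 above 0 against 0 the medians were 0.095 for pluripotency, 0.47 for mesendoderm and endoderm and 1.38 for blood and immune genes, and the log2 ratios were 0.010 for GCHFR, 0.49 for PRKAR2B, 0.54 for AVPI1 and 0.28 for GDF3. The blood and immune median was 1.34 without the 5% of cells with most genes, 1.13 with a mean of 10 or more and 1.33 without the highest cell of each gene, which also took the keratin median to 0.028. The adipocyte, bone and cartilage median was -0.73 with FN1 at 10 or more against under 1. Of 850 values of 50 named genes, 753 stayed within 1.5 times. The causes were not tested.

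The settings on SOX2 and on FN1 at 100 or more were chosen after seeing the data. No paired analysis was possible because the result comes from no test and the cells of 1 culture share no replicate. With 51 and 41 cells of unknown read depth, a gene detected in few cells cannot be told from one missed at this depth. By the approximate bound of 3 over the number of cells, a share of 0 still allows about 5.88% of FN1-keeping and 7.32% of FN1-low cells.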
